A study of Mus musculus with 6 samples.

Results

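The genes described here are 6 of the S100 family (S100a4, S100a6, S100a8, S100a9, S100a10 and S100a11) and 3 annexins (Anxa1, Anxa2 and Anxa3), chosen by name as 9 of the 32285 genes in the deposited feature lists. Their transcripts were counted as unique molecular identifiers (UMIs, molecules tagged before amplification) in single cells of the mouse kidney. The 3 rhabdomyolysis libraries came from C57BL/6J mice aged 8 weeks with acute kidney injury after the breakdown of skeletal muscle (rhabdomyolysis), and the 3 control libraries from control mice of the same strain and age. All 6 libraries were made from dissociated kidneys by droplet-based 3' sequencing of live cells sorted for the leukocyte surface protein CD45. The labels give neither the agent nor the time of the injury. They do not say that libraries of a group are separate animals, so a p-value here rests on libraries that may be technical repeats. Ptprc, which encodes CD45, was found in every cell class of every library, at 162 to 1418 CPM (the UMIs of a gene scaled to a common total per class and library). In macrophages it stood at 170.5, 203.5 and 260.8 CPM in rhabdomyolysis libraries, against 720.6, 841.8 and 720.2 CPM in control libraries.

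S100 proteins are small calcium-binding proteins with EF hands, and annexins bind acidic membrane phospholipids when calcium is present. Several work together: S100A10 binds annexin A2 in a complex at the plasma membrane that can hold plasminogen, S100A11 binds annexin A1, and S100A8 and S100A9 form calprotectin. Calprotectin is abundant in the cytosol of neutrophils and classical monocytes and, once released, is a ligand of Toll-like receptor 4 and of the receptor RAGE. Annexin A1 is induced by glucocorticoids and acts through the formyl peptide receptor Fpr2.

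The S100 genes lie on mouse chromosome 3 (build GRCm38.p6, the build that mm10 names). S100a4 (chr3:90603770-90606045), S100a6 (chr3:90612894-90614414), S100a8 (chr3:90669071-90670034) and S100a9 (chr3:90692630-90695721) are close together. S100a11 (chr3:93520496-93526288) and S100a10 (chr3:93555117-93564645) lie next to each other farther along. The annexin genes are apart, with Anxa3 at chr5:96793385-96845968, Anxa2 at chr9:69453683-69491792 and Anxa1 at chr19:20373434-20390671.

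RefSeq promoter windows (GRCm38.p6) were matched for 7 of the 9 genes. The 100 bases before the start are shown for S100a8 and S100a9, whose UMIs kept together across classes, and for S100a4 and Anxa1, which had the largest called falls in lymphoid cells. They are given 5′ to 3′ on the strand of the gene, with matches to TATAAA in capitals.
S100a8, chr3:90668971-90669070, plus strand: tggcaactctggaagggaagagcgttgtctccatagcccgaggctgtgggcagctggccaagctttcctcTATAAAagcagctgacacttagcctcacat
S100a9, chr3:90695722-90695821, minus strand: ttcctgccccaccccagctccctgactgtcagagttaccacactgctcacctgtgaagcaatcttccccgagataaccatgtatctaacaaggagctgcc
S100a4, chr3:90603670-90603769, plus strand: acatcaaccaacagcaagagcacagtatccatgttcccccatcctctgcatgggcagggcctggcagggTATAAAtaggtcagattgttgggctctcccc
Anxa1, chr19:20390672-20390771, minus strand: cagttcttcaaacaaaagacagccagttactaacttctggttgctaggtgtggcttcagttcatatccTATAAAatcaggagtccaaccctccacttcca
The 250 bases before each start were searched on both strands for 4 short words. The word TATAAA was found in S100a4, S100a8, Anxa1 and Anxa2, and 12.4% of 32851 promoters of that length hold it. TGANTCA was found in S100a11 and Anxa2 (6.75% of promoters), GAGGAA in S100a8, S100a11 and Anxa1 (23.3%), and TTGCNNAA in S100a9 and Anxa1 (9.56%). S100a6 held none of these 4 words in that window. These matches describe the letters only, and no binding was measured.

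The rhabdomyolysis libraries held 10816727 to 22656666 gene UMIs and 1021 to 1539 called cells, and the control libraries 16666253 to 19427318 gene UMIs and 2286 to 3490 called cells. Of 12737 called cells, 10226 were placed in 1 of 7 classes by marker UMIs, none of which is a gene described here, and 17 called barcodes occurred in more than 1 library. Rhabdomyolysis libraries held 70 to 116 T cells, 40 to 90 B cells, 9 to 97 NK cells, 426 to 599 macrophages, 132 to 260 monocytes, 20 to 78 dendritic cells and 72 to 131 neutrophils. Control libraries held 527 to 634 T cells, 236 to 426 B cells, 54 to 105 NK cells, 923 to 1549 macrophages, 18 to 26 monocytes, 91 to 139 dendritic cells and 8 to 11 neutrophils. A library with under 20 cells of a class was left out of its test, which removed rhabdomyolysis replicate 2 for NK cells, control replicate 3 for monocytes and the control neutrophils. Free RNA, the RNA outside cells that enters every droplet, was estimated from genes a class should lack. It came to 46.2%, 25.4% and 14.8% of the UMIs of rhabdomyolysis T cells and to 3.87%, 3.57% and 6.69% of those of control T cells. For macrophages it was the other way, with 6.44%, 3.68% and 10.9% in the rhabdomyolysis libraries, against 19.3%, 16.8% and 17.5% in the control libraries. Values below are listed for replicates 1 to 3 of each group in CPM of the class, and a change is called at an adjusted p under 0.05 in edgeR's quasi-likelihood test.

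**Figure D1:**
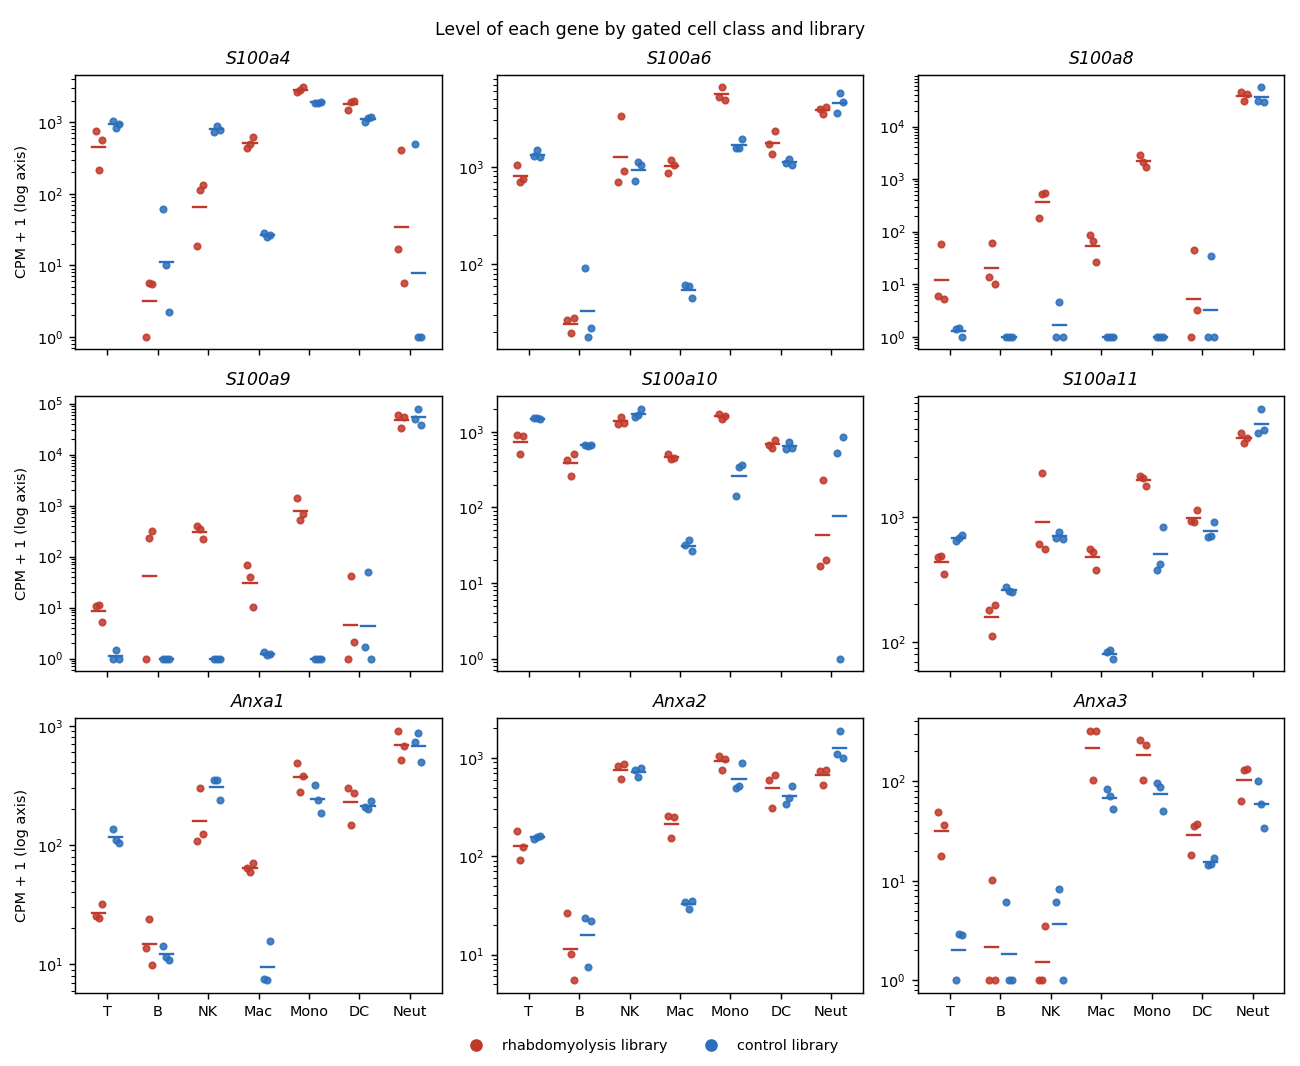
Level of each of the 9 genes in 7 gated classes, as CPM + 1 on a log axis. Points are single libraries, with rhabdomyolysis libraries left of control libraries in each class, and lines are geometric means. Macrophages and monocytes of rhabdomyolysis libraries lie above those of control libraries for most genes, while T cells lie lower or level for S100a4, S100a6, S100a10, S100a11 and Anxa1.

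Over all called cells summed per library, all 9 genes rose with rhabdomyolysis, where 45.8% of 12156 genes were called and 24.2% were called higher. The median log2 change of the 9 genes was 1.98, beside -0.01 for all genes tested. S100a8 stood at 1953, 1955 and 1429 CPM in rhabdomyolysis libraries, against 71.7, 93.6 and 87.8 CPM in control libraries, a log2 change of 4.69 ± 0.20 (SE). S100a10 had 840, 712 and 929 CPM in rhabdomyolysis libraries, against 545, 548 and 581 CPM in control libraries, a log2 change of 0.86 ± 0.13. Of the 9 genes, S100a8 thus changed most and S100a10 least in this sum, and the libraries of both groups did not overlap for any of the 9, as for 61.9% of all genes. Cell make-up and level per cell cannot be told apart in such a sum: T cells were 5.14% to 7.54% of called cells in rhabdomyolysis libraries and 18.2% to 24.5% in control libraries, and monocytes 12.1% to 16.9% and 0.745% to 0.803%.

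The classes that held the transcripts differed between the groups. Monocytes held 43.6%, 52.9% and 45% of the S100a6 UMIs of rhabdomyolysis libraries, whereas T cells held 41.6%, 43.1% and 50.6% of those of control libraries. S100a10 followed the same order, with 37.5%, 41.9% and 39.5% of its UMIs in monocytes of rhabdomyolysis libraries and 47.3%, 47.0% and 53.6% in T cells of control libraries. S100a8 came mainly from neutrophils in both groups. They held 46.9%, 67.9% and 53.6% of it in rhabdomyolysis libraries and 84.5%, 86.0% and 100% in control libraries, and monocytes held a further 26.4%, 21.8% and 27.4% in rhabdomyolysis libraries.

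**Figure D2:**
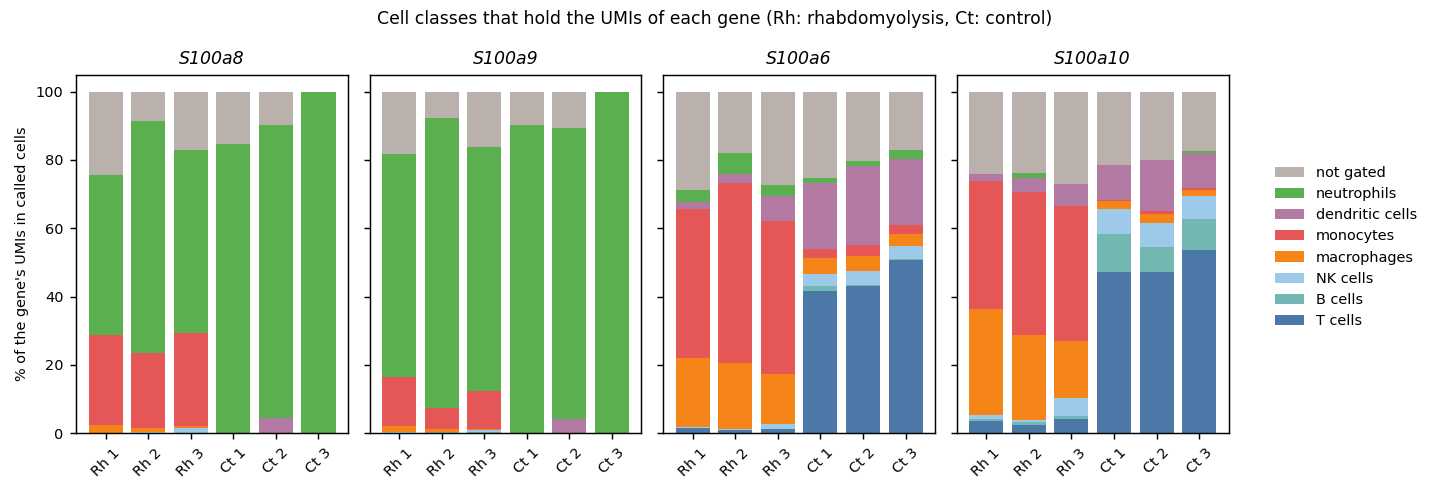
Share of each gene's UMIs in called cells that lies in each class, as stacked bars per library, for S100a8, S100a9, S100a6 and S100a10. Rhabdomyolysis libraries (Rh) stand left of control libraries (Ct): T cells hold the largest share of S100a6 and S100a10 in control libraries, and monocytes in rhabdomyolysis libraries.

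In neutrophils the calprotectin genes were the highest of the 9 in every library. S100a9 stood at 58800, 33863 and 54547 CPM in rhabdomyolysis neutrophils, against 50638, 79235 and 38833 CPM in the 11, 8 and 11 control neutrophils. S100a8 stood at 46282, 30782 and 40823 CPM in rhabdomyolysis neutrophils and at 30244, 56375 and 29846 CPM in control neutrophils. The groups overlapped for both genes. With a minimum of 5 cells per library in place of 20, edgeR called 56 of 1087 genes (5.15%) and 0 of the 7 members tested, with 1 of the 7 at an unadjusted p under 0.05. The log2 change was 0.12 ± 0.30 for S100a8 (adjusted p = 0.891) and -0.09 ± 0.31 for S100a9 (adjusted p = 0.932), and a change of the size of these errors was not detectable with so few control cells. The member at an unadjusted p under 0.05 was Anxa2, at -0.86 ± 0.36 (adjusted p = 0.240). S100a10 had the largest change of the members tested, at -2.13 ± 0.98, and did not pass either (adjusted p = 0.278). It averaged 88.9 ± 124 CPM in rhabdomyolysis neutrophils and 464 ± 435 CPM in control neutrophils (SD, n = 3), where libraries ranged from 0 to 862 CPM. S100a4 and Anxa3 did not pass the filter on low counts there, and rhabdomyolysis neutrophils had 15.7, 407 and 4.71 CPM of S100a4, against 496, 0 and 0 CPM in control neutrophils. All 15 S100a4 UMIs of control neutrophils lay in 1 cell.

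Monocytes of rhabdomyolysis libraries carried calprotectin transcripts that were at 0 in monocytes of control libraries. S100a8 stood at 2853, 2133 and 1720 CPM in rhabdomyolysis monocytes, and no UMI was found in control monocytes of any library. Counting 11726 UMIs against a floor of 3 over the tested control libraries, S100a8 was at least 191-fold higher, and S100a9, with 4386 UMIs, at least 71.6-fold higher. Thinned to 1000 UMIs per cell, 33.6%, 38.9% and 25.5% of rhabdomyolysis monocytes had an S100a8 UMI, where free RNA alone would give 3.25%, 2.35% and 5.52%. Rhabdomyolysis B cells, which should lack S100a8, showed it in 2.56%, 1.16% and 0%, and the unthinned shares of monocytes were 59.1%, 67.7% and 50.4%. The ratio of S100a8 to S100a9 UMIs was 2.04, 4.14 and 2.47 in these monocytes, against 0.787, 0.909 and 0.748 in neutrophils and 1.09, 1.25 and 1.01 in free RNA of the same libraries. The S100a9 UMIs of replicate 1 were uneven, with 742 of 1632 in 1 cell. The monocyte gate takes classical and nonclassical cells together, and the marker sums differed: 11590, 11090 and 8793 CPM of the 5 classical genes (Ly6c2, Vcan, Chil3, F10 and F13a1) in rhabdomyolysis monocytes, against 1619, 1094 and 835 CPM in control monocytes. The 6 nonclassical genes (Ace, Treml4, Cd300e, Adgre4, Spn and Eno3) summed to 192, 160 and 300 CPM in rhabdomyolysis monocytes, against 1685, 1413 and 1473 CPM in control monocytes. The part of this difference in the changes of monocytes was not tested, because too few control cells passed a classical gate.

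Of the 9 genes, 7 rose in monocytes, where 7.02% of 7263 genes were called higher, 5.23% lower and 12.3% in either direction. Libraries did not overlap for 8 of the 9, against 51.8% of all genes. Their median log2 change was 2.06, beside 0.06 for all genes. S100a6 had 5277, 6619 and 4915 CPM in rhabdomyolysis monocytes, against 1576 and 1580 CPM in the 2 control libraries tested and 1915 CPM in the 1 left out. That made S100a6 the highest member in rhabdomyolysis monocytes, with a log2 change of 2.06 ± 0.16 (adjusted p = 2.18e-06). S100a10, the partner of annexin A2, had 1741, 1489 and 1611 CPM in rhabdomyolysis monocytes, against 139 and 341 CPM in control monocytes (log2 change 2.98 ± 0.28, adjusted p = 1.09e-05). With replicate 1 as the lone control library the log2 change was 3.88.
S100a11 rose by a log2 change of 2.55 ± 0.18, Anxa2 by 1.11 ± 0.20 and S100a4, which binds nonmuscle myosin, by 0.85 ± 0.14. Anxa1 (0.69 ± 0.27, adjusted p = 0.115) and Anxa3 (1.36 ± 0.45, adjusted p = 0.0652) did not pass. Without rhabdomyolysis replicate 2 both passed, at adjusted p of 0.0204 and 4.2e-04.

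In macrophages all 9 genes rose, where 43.7% of 10077 genes were called, 22.1% higher and 21.6% lower. Libraries did not overlap for any of the 9, as for 55.1% of all genes. The median log2 change of the members was 4.02, beside -0.04 for all genes. S100a6, also called calcyclin, had 865, 1169 and 1039 CPM in rhabdomyolysis macrophages, against 59.7, 58.5 and 43.6 CPM in control macrophages. S100a4 had 431, 504 and 632 CPM in rhabdomyolysis macrophages, against 27.7, 23.7 and 25.2 CPM in control macrophages. S100a10 had 510, 436 and 445 CPM in rhabdomyolysis macrophages, against 30.4, 36.0 and 25.2 CPM in control macrophages. The groups were far apart for each of these genes, with log2 changes of 4.34 ± 0.19, 4.44 ± 0.20 and 4.02 ± 0.19 and adjusted p of 3.31e-06, 3.31e-06 and 4.25e-06. The control values of these 3 genes lay below the level that the free RNA estimate would give, so the estimate was too high for them. It assigned 100% of their UMIs to free RNA in every control library, a share that is therefore an upper bound. In rhabdomyolysis macrophages 4.89% to 23.0% of the UMIs of the same genes were so assigned.

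S100a11 and the annexins rose by less in macrophages. S100a11 stood at 551, 518 and 373 CPM in rhabdomyolysis macrophages, against 82.4, 85.0 and 73.0 CPM in control macrophages (log2 change 2.68 ± 0.20). Its partner Anxa1 stood at 62.6, 58.1 and 69.8 CPM in rhabdomyolysis macrophages, against 6.51, 6.35 and 14.5 CPM in control macrophages (2.90 ± 0.32). Anxa2 changed by 2.88 ± 0.24, and its 254, 152 and 250 CPM in rhabdomyolysis macrophages lay above the 33.4, 27.9 and 33.9 CPM of control macrophages. Anxa3, an annexin known from granules of neutrophils, had 323, 101 and 316 CPM in rhabdomyolysis macrophages and 82.9, 70.6 and 51.5 CPM in control macrophages (1.95 ± 0.39, adjusted p = 0.004). Rhabdomyolysis replicate 2 was the lowest of its group for Anxa3 and still above every control library.

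S100a8 and S100a9 were low in macrophages. S100a8 had 85.3, 65.7 and 25.4 CPM in rhabdomyolysis macrophages and no UMI in control macrophages, and S100a9 had 67.2, 38.6 and 9.07 CPM, against 0.326, 0.192 and 0.231 CPM. The free RNA estimate assigned 100% of both genes' UMIs to free RNA in all 3 rhabdomyolysis libraries, and after its subtraction neither could be tested. All S100a8 UMIs lay in 22 of 426, 47 of 599 and 30 of 450 rhabdomyolysis macrophages.

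The macrophage gate (C1qa, C1qb and C1qc) also held transcripts of the 5 classical monocyte genes, at 844, 792 and 808 CPM in rhabdomyolysis libraries and 4.07, 4.04 and 2.77 CPM in control libraries. In the macrophages that were not positive for either monocyte list, an alternative chosen after seeing the data, all 9 members were still called. There the log2 changes were 3.63 for S100a6, 3.68 for S100a4 and 3.66 for S100a10. The sum of 4 platelet genes (Pf4, Ppbp, Gp9 and Itga2b) was 1712, 600 and 929 CPM in rhabdomyolysis macrophages, against 276, 226 and 217 CPM in control macrophages. Rhabdomyolysis replicate 2 also held 4485 CPM of 5 erythroid genes in its macrophages. The part of platelet and erythroid RNA in these changes was not tested, and all 9 members were called without each library in turn.

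S100a6 was found in a minority of macrophages. Thinned to 1000 UMIs, 17.1%, 17.8% and 24% of rhabdomyolysis macrophages had an S100a6 UMI, against 2.96%, 3.68% and 2.89% of control macrophages. Free RNA alone would give 13.7%, 9.31% and 21.2% in the rhabdomyolysis libraries and 11.4%, 9.84% and 8.86% in the control libraries. The share in rhabdomyolysis replicate 3 was close to that level. In every control library the free RNA estimate was above the measured share, so it was too high for S100a6 there. B cells, which should hold little S100a6, showed it in 0%, 1.16% and 1.14% of rhabdomyolysis cells and 4.28%, 1.25% and 1.74% of control cells. Without thinning the macrophage shares were 35.5%, 28.9% and 38.9% in rhabdomyolysis libraries, at median depths of 6472, 5278 and 7478 UMIs, and 8.59%, 9.22% and 7.15% in control libraries, at 3613, 3683 and 4221 UMIs.

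In dendritic cells 3 of the 7 members tested were called, all higher, where 8.21% of 6605 genes were called higher, 6.30% lower and 14.5% in either direction. Libraries did not overlap for 4 of the 9, against 33.0% of all genes. S100a4 had 1508, 1909 and 1981 CPM in rhabdomyolysis dendritic cells, against 1028, 1141 and 1206 CPM in control dendritic cells (log2 change 0.72 ± 0.13, adjusted p = 0.00159). S100a6 had 1723, 1363 and 2329 CPM in rhabdomyolysis dendritic cells, against 1102, 1199 and 1048 CPM in control dendritic cells (0.73 ± 0.15, adjusted p = 0.0046). The groups did not overlap for either gene, and both were called without each library in turn. The third call, Anxa3, was low, with 17.0, 34.5 and 36.5 CPM in rhabdomyolysis dendritic cells and 13.5, 13.7 and 16 CPM in control dendritic cells (1.22 ± 0.30, adjusted p = 0.014). It did not pass with DESeq2 (adjusted p = 0.147), after free RNA subtraction (0.149), without control replicates 1 (0.0629) or 2 (0.0648), or without rhabdomyolysis replicate 3 (0.105). S100a11 (0.40 ± 0.14, adjusted p = 0.0765), Anxa2 (0.36 ± 0.23, 0.34), Anxa1 (0.17 ± 0.21, 0.676) and S100a10 (0.12 ± 0.14, 0.627) did not pass. S100a11 passed without control replicate 3 (0.0462) and Anxa2 without rhabdomyolysis replicate 2 (0.022). S100a8 and S100a9 were too low to be tested, and 46 of the 47 S100a8 UMIs of control replicate 2 lay in 1 cell. Rhabdomyolysis replicate 2 held 14850 CPM of the erythroid genes in its dendritic cells, and the dendritic markers summed to 1151, 539 and 1092 CPM in rhabdomyolysis libraries and 2088, 2078 and 2389 CPM in control libraries. Their part in these values was not tested.

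**Figure D3:**
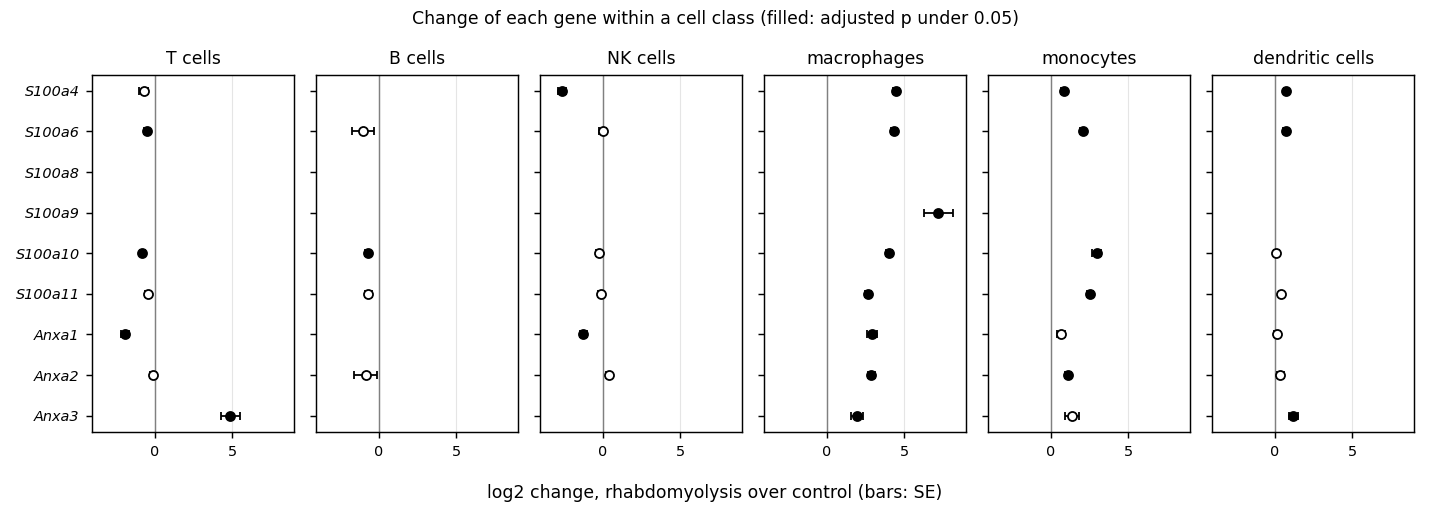
log2 change with SE of each gene in 6 cell classes, rhabdomyolysis over control, from edgeR. Filled points have an adjusted p under 0.05, genes without a point were not tested or had at most 3 UMIs in control libraries, and the filled points of the myeloid classes all lie right of 0.

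In T cells Anxa1, S100a10 and S100a6 fell. Of the 7 members tested, 3 fell and 1 rose, where 4.01% of 7926 genes were called lower, 6.59% higher and 10.6% in either direction, and the median log2 change of these 7 was -0.52, beside -0.01 for all genes. Anxa1 had 24.3, 23.4 and 31.0 CPM in rhabdomyolysis T cells, against 135, 110 and 103 CPM in control T cells. The groups lay well apart, with a log2 change of -1.90 ± 0.25 (adjusted p = 1.02e-04), and Anxa1 was called under every alternative run. The rhabdomyolysis values rest on few molecules, with 5, 7 and 15 Anxa1 UMIs in the 3 libraries, against 345, 228 and 225 in control libraries. S100a10 had 912, 501 and 873 CPM in rhabdomyolysis T cells, against 1520, 1511 and 1454 CPM in control T cells (-0.79 ± 0.17, adjusted p = 0.00587). S100a6 had 1043, 699 and 742 CPM in rhabdomyolysis T cells, against 1294, 1476 and 1257 CPM in control T cells (-0.52 ± 0.15, adjusted p = 0.0403). That call was lost without any 1 of control replicates 1, 2 and 3 or rhabdomyolysis replicate 3, at adjusted p of 0.0995, 0.191, 0.1 and 0.0742. After free RNA subtraction S100a6 gave -2.69 and was not called (adjusted p = 0.107), while Anxa1 moved to -3.11 (0.00256) and S100a11 to -1.52 (0.0403), both called. For S100a6 the free RNA estimate was above the measured share of rhabdomyolysis T cells in replicates 1 and 2, as given below. The subtraction may therefore remove too much from these T cells, and the larger falls and the S100a11 call depend on it.

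S100a4 and S100a11 were lower in every rhabdomyolysis library of T cells than in any control library without passing the test. S100a4 had 762, 217 and 571 CPM in rhabdomyolysis T cells, against 1048, 844 and 946 CPM in control T cells (-0.71 ± 0.26, adjusted p = 0.11), and S100a11 gave -0.44 ± 0.16 (adjusted p = 0.106). S100a4 passed without rhabdomyolysis replicate 1 (0.0242), and S100a11 without rhabdomyolysis replicate 2 (0.00435). Anxa2 overlapped between the groups (-0.10 ± 0.19, adjusted p = 0.81). In all, 5 of the 9 members lay lower and 3 higher with no overlap of libraries, where 34.8% of genes did not overlap in either direction. The 3 higher ones were Anxa3, S100a8 and S100a9. Anxa3 was called higher (4.86 ± 0.61, adjusted p = 6.94e-05) on 10, 5 and 17 UMIs in rhabdomyolysis T cells, against 0, 4 and 4 UMIs in control T cells. Between 88.7% and 100% of those rhabdomyolysis UMIs were assigned to free RNA. S100a8 and S100a9 were not tested, with 20 and 7 UMIs in all rhabdomyolysis T cells.

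Other properties of the T cell gate moved with these changes. The naive T cell genes Ccr7 and Lef1 summed to 340, 391 and 287 CPM in rhabdomyolysis T cells, against 184, 157 and 155 CPM in control T cells. Among T cells with no UMI of either gene, a choice made after seeing the data, 4 members were called by edgeR, all lower. Anxa1 gave a log2 change of -1.87 (adjusted p = 0.00535), S100a4 -0.95 (0.0374), S100a11 -0.56 (0.0356) and S100a6 -0.74 (0.0497). S100a10 gave -0.64 and did not pass (0.0506). A naive T cell can lack a UMI of both genes at this depth, so naive cells can remain in this set. The C1q genes of macrophages summed to 868, 418 and 769 CPM in rhabdomyolysis T cells and 322, 237 and 438 CPM in control T cells. In T cells with no C1q UMI, also chosen after seeing the data, 5 members were called, all lower, and the log2 changes were -3.09 for Anxa1, -1.03 for S100a4, -1.0 for S100a6, -0.81 for S100a10 and -0.75 for S100a11. Thinned to 1000 UMIs, Anxa1 was found in 0%, 1.27% and 0.87% of rhabdomyolysis T cells, against 11.4%, 9.48% and 9.72% of control T cells. S100a6 was found in 26.5%, 19.0% and 29.6% of rhabdomyolysis T cells, against 52.3%, 55.5% and 56.5% of control T cells. The free RNA estimate would alone give S100a6 in 65.2%, 49.1% and 27.7% of rhabdomyolysis T cells, which is above the measured shares in replicates 1 and 2.

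In NK cells S100a4 and Anxa1 fell. S100a4 had 17.7 and 134 CPM in the rhabdomyolysis libraries tested, against 734, 892 and 785 CPM in control libraries (log2 change -2.62 ± 0.26, adjusted p = 2.07e-06). The 9 NK cells of the rhabdomyolysis library left out had 113 CPM, also below every control library. The rhabdomyolysis values rest on 1 and 54 UMIs, and with replicate 1 as the lone rhabdomyolysis library the log2 change was -5.39. Such a fit takes the spread from the control libraries. Anxa1 had 106 and 122 CPM in rhabdomyolysis NK cells, against 347, 351 and 237 CPM in control NK cells (-1.23 ± 0.24, adjusted p = 0.00228), and with replicate 1, of 22 cells, as the lone rhabdomyolysis library its adjusted p was 0.0741. S100a6 (0.00 ± 0.20), S100a10 (-0.25 ± 0.15), S100a11 (-0.13 ± 0.17) and Anxa2 (0.40 ± 0.16) did not pass, with adjusted p of 0.999, 0.395, 0.724 and 0.152. Of the 8 members tested in NK cells, 2 were called lower and 2 higher, where 2.77% of 3976 genes were called lower, 4.43% higher and 7.19% in either direction. Libraries lay higher with no overlap for 3 of the 9 and lower for 4, where 38.9% of genes did not overlap. The 2 higher calls, S100a8 and S100a9, each rested on single cells: 216 of the 217 S100a8 UMIs and 84 of the 87 S100a9 UMIs of rhabdomyolysis replicate 3 lay in 1 cell. Among NK cells with no UMI of a neutrophil marker, a choice made after seeing the data, neither gene could be tested, and the 2 lower calls held. Thinned to 1000 UMIs, S100a4 was found in 0% and 7.22% of rhabdomyolysis NK cells tested, against 38.5%, 40.8% and 34.0% of control NK cells.

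B cells held little of most members. S100a10 had 422, 259 and 505 CPM in rhabdomyolysis B cells, against 666, 655 and 667 CPM in control B cells. It was the 1 call among the 4 members tested (log2 change -0.71 ± 0.19, adjusted p = 0.0345), where 2.27% of 4944 genes were called lower, 2.25% higher and 4.51% in either direction. Libraries lay higher with no overlap for 1 of the 9 and lower for 2, where 24.0% of genes did not overlap. The call was lost without any 1 of 5 libraries, control replicates 1 to 3 and rhabdomyolysis replicates 1 and 2, at adjusted p of 0.0993 to 0.165. S100a11 had 179, 111 and 197 CPM in rhabdomyolysis B cells, against 272, 257 and 249 CPM in control B cells (-0.66 ± 0.20, adjusted p = 0.0702), and it passed without rhabdomyolysis replicate 3 (0.0135). S100a6 (-1.01 ± 0.72) and Anxa2 (-0.81 ± 0.74) had large errors and adjusted p of 0.501 and 0.63. S100a4, S100a8, S100a9, Anxa1 and Anxa3 were too low to be tested. S100a9 reached 227 and 313 CPM in rhabdomyolysis replicates 2 and 3, but 47 of 49 and 70 of 70 UMIs lay in 1 cell each.

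**Figure D4:**
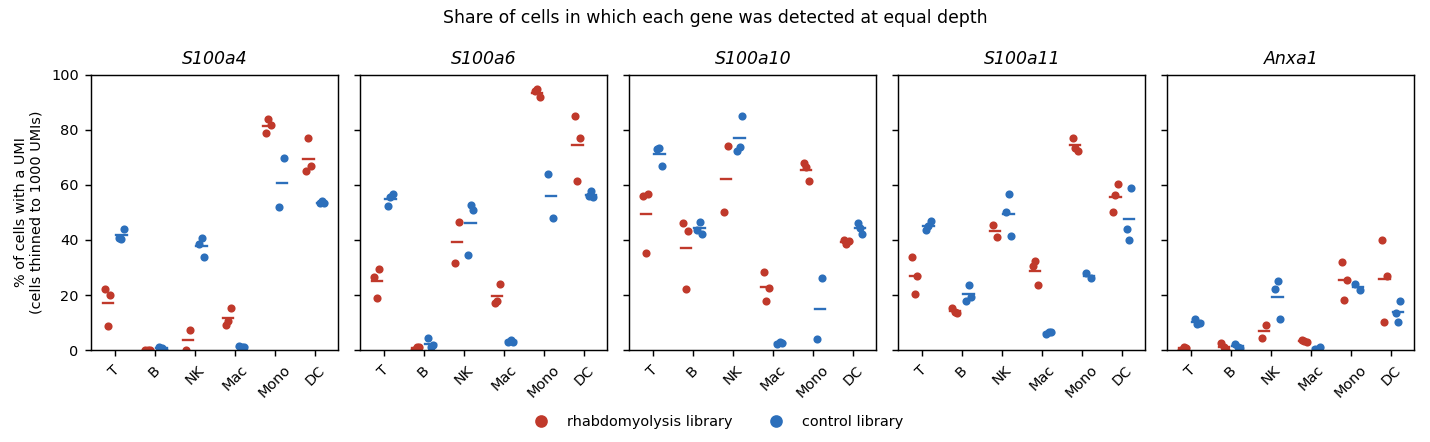
Share of cells with at least 1 UMI of a gene after each cell was thinned to 1000 UMIs, for 5 genes in 6 classes. Points are libraries with at least 20 cells, rhabdomyolysis left of control, and lines are means. S100a6 is found in 19.0% to 29.6% of rhabdomyolysis T cells and 52.3% to 56.5% of control T cells, and the order is turned round in macrophages.

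The difference of the change between lymphoid and myeloid cells was tested itself, as the mean log2 change of T, B and NK cells minus that of macrophages, monocytes and dendritic cells, in 1 edgeR fit with a term for each library. Of the 9 members, 6 had a difference below 0, where 12.5% of 7698 genes were called below 0, 4.66% above 0 and 17.2% in either direction. The difference was -4.18 ± 0.39 for S100a4, -3.11 ± 0.15 for S100a10, -2.99 ± 0.26 for S100a6, -2.35 ± 0.15 for S100a11, -2.23 ± 0.28 for Anxa1 and -1.73 ± 0.22 for Anxa2, beside a median of -0.12 over all genes. A value below 0 also arises where myeloid cells rose and lymphoid cells were not called. S100a11 and Anxa2 were called in no lymphoid class, and S100a6 in T cells alone. Nor was each gene called in every myeloid class. S100a10, S100a11, Anxa1 and Anxa2 were not called in dendritic cells, and Anxa1 was not called in monocytes either. Adjusted p ran between 2.92e-18 for S100a10 and 2.88e-07 for Anxa2. With a term for each library, this fit sets the difference against the spread of class profiles within libraries. Its p-values are not on the footing of those of a single class. Anxa3 did not pass (-0.07 ± 1.64, adjusted p = 0.987), and S100a8 and S100a9 could not be fitted because a class was at 0 in every control library. The lymphoid mean takes in B cells, in which S100a4 and Anxa1 were too low to be tested alone. S100a4 averaged 3.03 ± 2.63 CPM in rhabdomyolysis B cells and 23.8 ± 32.4 CPM in control B cells (SD, n = 3). The S100a4 difference was -3.35 without control replicate 1 and -5.20 without rhabdomyolysis replicate 3. With monocytes left out of the myeloid side all 6 were still called below 0. After free RNA subtraction S100a11, Anxa1 and Anxa2 were called below 0 at -3.45, -3.09 and -2.52. The shares subtracted were larger in rhabdomyolysis T cells and in control macrophages, which by itself moves these differences further below 0. The larger values therefore cannot be read as a stronger difference. S100a4, S100a6 and S100a10 could not be fitted because control macrophages were then at 0. For these 3 genes the free RNA estimate in control macrophages was above the measured level, and for S100a6 also above the measured share of cells, as given above.

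**Figure D5:**
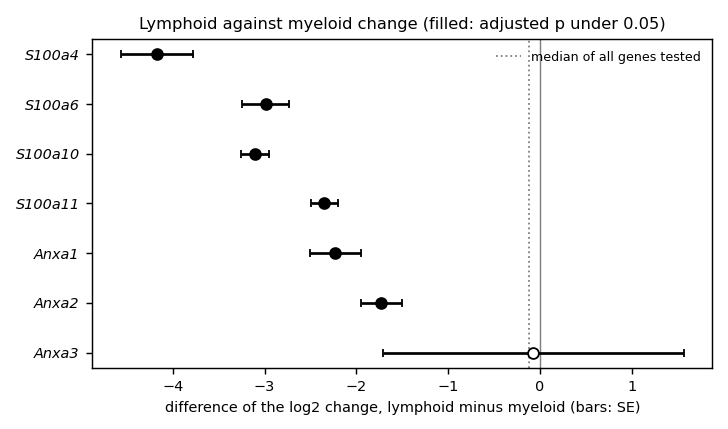
Difference of the log2 change, lymphoid minus myeloid, with SE, for the 7 members that could be fitted. Filled points have an adjusted p under 0.05 and the dotted line is the median of all genes tested: 6 members lie between -4.18 and -1.73, and Anxa3 lies at the median with an SE of 1.64.

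The order of the classes differed from gene to gene. S100a4 averaged 2880 ± 221 CPM in monocytes, 1799 ± 255 in dendritic cells, 523 ± 102 in macrophages and 517 ± 276 in T cells of rhabdomyolysis libraries (SD, n = 3), and the last pair overlapped. In control libraries it averaged 1880 ± 4.17 CPM in monocytes (n = 2), 1125 ± 90.0 in dendritic cells, 946 ± 102 in T cells and 804 ± 80.3 in NK cells, and only 25.5 ± 2.03 in macrophages. S100a10 was highest in monocytes in rhabdomyolysis libraries (1614 ± 126 CPM), ahead of NK cells (1301 ± 34.5, n = 2) and T cells (762 ± 227). In control libraries NK cells (1746 ± 242 CPM) and T cells (1495 ± 35.9) led, and monocytes (240 ± 142, n = 2) stood below B cells (662 ± 6.71). Anxa2 in rhabdomyolysis libraries averaged 930 ± 158 CPM in monocytes and 850 ± 23.2 in NK cells, which overlapped, and 13.1 ± 11.1 in B cells.

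Across the 37 class and library profiles, which share libraries and the groups' changes, S100a8 and S100a9 followed each other most closely of all member pairs (Pearson r of log2(CPM + 1) 0.960). S100a6 followed Anxa2 (r = 0.914), Anxa1 (0.875) and S100a11 (0.85), and Anxa1 followed Anxa2 (0.901). S100a10 and Anxa2, whose proteins form a complex, had an r of 0.239, and S100a11 and Anxa1 one of 0.867. Among the 3141 genes with a mean log2(CPM + 1) of at least 5, which leaves out S100a9, those most like S100a6 were Arf5 (0.927), Mrpl33 (0.918), Anxa2, Txn1 (0.913) and Actg1 (0.908). Among the same genes, those most like S100a8 were Srgn (0.856), Fbxl5 (0.834), Ndel1 (0.813), Rab7 (0.804) and Card19 (0.803). Those most like Anxa1 were Anxa2, Zyx (0.892), Mrpl33 (0.879), S100a6 and S100a11. These are descriptions, with no test.

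Of 9 other annexins, 5 were tested in macrophages, 2 rose (Anxa7 and Anxa11) and 1 fell (Anxa6), where 43.7% of all genes were called. In T cells, where 10.6% of all genes were called, 5 of the 9 were tested, and Anxa4 rose (log2 change 1.96 ± 0.41, adjusted p = 0.00458) while Anxa6, a multi-domain annexin of membranes, fell (-1.0 ± 0.21, 0.00464). Anxa4 rested on 4, 6 and 10 UMIs in rhabdomyolysis T cells, 19.6% to 67.1% of them assigned to free RNA, against 14, 11 and 15 UMIs in control T cells. Anxa6 had 77.6, 46.8 and 103 CPM in rhabdomyolysis T cells, against 177, 170 and 195 CPM in control T cells. None of the other annexins was called by edgeR in B cells, NK cells, monocytes or dendritic cells, with 1, 0, 2 and 1 at an unadjusted p under 0.05. Of 8 other S100 genes, 3 were tested in macrophages: S100a13 rose, S100a1 did not pass, and S100g, a calcium-binding protein of kidney tubules, fell (-6.16 ± 0.57, adjusted p = 8.76e-05). S100g had 0.611, 1.31 and 0 CPM in rhabdomyolysis macrophages, against 74.9, 35.0 and 41.1 CPM in control macrophages, and 95.6% to 100% of the control UMIs were assigned to free RNA. The 8 tubule markers summed to 13.1, 7.62 and 10.3 CPM in rhabdomyolysis macrophages and 171, 146 and 144 CPM in control macrophages. S100g also fell in dendritic cells, with no UMI in 3 rhabdomyolysis libraries, against 33.3, 28.9 and 14.0 CPM in control libraries.

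Of 15 receptor and partner genes, Plaur, the receptor of urokinase in the plasminogen system, was called higher in T cells, macrophages, monocytes and dendritic cells. It had 142, 174 and 92.2 CPM in rhabdomyolysis macrophages, against 2.60, 1.54 and 4.39 CPM in control macrophages (log2 change 5.69 ± 0.38, adjusted p = 1.89e-05). It rose by 1.98 ± 0.27 in monocytes and 3.69 ± 0.44 in dendritic cells. In T cells it was called at 6.84 ± 0.62, on 5, 28 and 20 UMIs in rhabdomyolysis cells, 36.2% to 100% of them assigned to free RNA, against 1 UMI in each control library. In macrophages 12 of the 15 were tested, 4 rose and 1 fell, a share close to the 43.7% of all genes called there. Among them Capn2, a calpain subunit, rose by 1.42 ± 0.22. Of 12 tested in monocytes, 2 rose and 1 fell, where 12.3% of all genes were called. Fpr2, the receptor of annexin A1, rose (2.97 ± 0.90, adjusted p = 0.0447) on 31, 140 and 114 UMIs in rhabdomyolysis monocytes, against 1 UMI in each control library tested, and the fatty acid receptor Cd36 fell (-2.54 ± 0.55). Cd36 fell in dendritic cells too (-3.04 ± 0.44), where 2 of 9 tested rose and 1 fell and 14.5% of all genes were called. None of the 5 tested in B cells and the 6 tested in NK cells was called by edgeR, with 1 and 2 at an unadjusted p under 0.05. Ahnak, a large scaffold that binds the S100A10 and annexin A2 complex, was named after its values were seen. It fell in T cells (-0.94 ± 0.17, adjusted p = 0.00191) and rose in macrophages (0.73 ± 0.23, adjusted p = 0.0294). It was not called in monocytes (-0.14 ± 0.21, adjusted p = 0.715), where S100a10 rose, nor in dendritic cells (-0.46 ± 0.16, adjusted p = 0.0709).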

How the data were processed

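Per the file headers, Cell Ranger version 4 wrote the matrices, and the submitters' processing notes name the build mm10. The values deposited by the authors are UMI counts per gene and barcode, neither normalised nor filtered for cells. The 6 antibody tags in the matrices were left out.

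Barcodes were taken as cells from 500 UMIs and 200 genes upward, with mitochondrial transcripts making up 15% or less, Malat1 at 0.1% of UMIs or more, and a profile unlike free RNA. Free RNA was read from barcodes of 100 or fewer UMIs, and the comparison was a multinomial Monte Carlo test of 10000 draws (adjusted p of at most 0.001, barcodes above 5000 UMIs thinned to 5000). A class needed at least 3 UMIs from at least 2 of its markers, more than 25% free RNA would give (Poisson p under 0.001). Barcodes passing for several lymphoid classes, or for a lymphoid class and the macrophage or neutrophil list, were left out. T, B and NK cells were not screened for the monocyte and dendritic lists, nor neutrophils for the dendritic list. Macrophages could also pass a monocyte list. Barcodes passing for both neutrophils and monocytes went to the class with more marker UMIs, and ties to monocytes. Mixed doublets of these kinds, and doublets of 1 class, can therefore remain.

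UMIs were summed per class and library. They were tested with the quasi-likelihood test of edgeR 4.0.16 (R 4.3.3), with TMM scaling, filterByExpr and Benjamini-Hochberg (BH) adjustment over all genes tested, checked on simulated data. A class was tested in the libraries that held 20 or more of its cells. The standard error (SE) of a log2 change is the change over the square root of F. DESeq2 1.42.0 and the other alternatives are given with the closing observations. The members, marker lists and gene lists were chosen with earlier results of these data known. The other genes named from each list set are the 3 largest absolute log2 changes among those called in a class. An alternative gate on T cells that was planned with a further marker is not reported here.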

Additional observations from a re-analysis of the deposited data

Results flagged for a closer look

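Of the 9 genes, 6 changed differently in lymphoid and myeloid cells by the test of the difference itself, edgeR's quasi-likelihood test over all class and library profiles, where 17.2% of 7698 genes were called and 12.5% lay below 0. The difference of the log2 change, lymphoid minus myeloid, was -4.18 for S100a4, -3.11 for S100a10 and -2.99 for S100a6. It was -2.35 for S100a11, -2.23 for Anxa1 and -1.73 for Anxa2. Free RNA, the monocyte markers in the macrophage gate and the make-up of the control monocytes move with these values, as given above. So do the naive T cell genes and the C1q genes in the T cell gate. Their part in the difference was not tested. Each side is a mean of classes that differed. The myeloid side was macrophages, monocytes and dendritic cells, and neutrophils were not in the fit. With a minimum of 5 cells per library, 0 of the 7 members tested were called in neutrophils. S100a11 and Anxa2 were called in no lymphoid class, and S100a6 in T cells alone. S100a10, S100a11, Anxa1 and Anxa2 were not called in dendritic cells, nor Anxa1 in monocytes. S100a4 and Anxa1 were too low in B cells to be tested there alone.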

How the results depend on the processing

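Of 750 values of single members in a class under an alternative, 700 kept their direction and side of the threshold, 17 lost a call, 25 gained one and 8 changed sign, none of them called. Of 63 values of the lymphoid minus myeloid difference 60 kept both, and that of Anxa3, never called, turned positive with the replicate block (0.10) and ran between -0.14 and 0.09 without 1 library, in the 3 such fits that gave it a value. The 8 were S100a6 in NK cells (block 0.03, minimum of 5 cells 0.65, no C1q UMI 0.22, and -0.37 to 0.19 with each library left out), S100a11 in NK cells (minimum of 5 cells 0.47) and Anxa2 in T cells (-0.33 to 0.02 with each library left out). With no filter on low counts 8 members were called in T cells (4 in the main test) and 5 in B cells (1), with S100a8 and S100a9 among them in both classes. In NK cells with no neutrophil marker UMI 2 were called (4). After free RNA subtraction 2 were called in B cells, and 3 differences (6), because 3 genes could not be fitted. Without any 1 of control replicates 1 to 3 or rhabdomyolysis replicate 1, the 1 member called in B cells was S100a9 and not S100a10. That S100a9 call rests on the single cells given above. Leaving out each library in turn gave 3 to 5 members in T cells, 0 to 2 in B cells, 2 to 5 in NK cells, 7 to 9 in monocytes, 2 to 4 in dendritic cells, 9 in macrophages and 6 differences. In NK cells and monocytes this can leave 1 library in a group, which is assumed to vary like the others (Anxa2 in NK cells then passed without rhabdomyolysis replicate 1, adjusted p = 0.0374).

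Any pairing of the libraries by replicate number was weak: correlations of same-numbered deviations ran between -0.010 and 0.210. All 3 rhabdomyolysis libraries were closest to their own number in macrophages and all called cells, 2 in T cells, 1 in dendritic cells and 0 in B cells. With the replicate number as a block, 2 members were called in B cells, S100a10 and S100a9, the latter on the single cells given above. S100a4 in T cells (adjusted p = 0.0173) and Anxa1 and Anxa3 in monocytes gained calls. Over all genes, the block gave 135 calls in NK cells (286 in the main test). DESeq2 gave 74 in NK cells and 610 in dendritic cells (958), free RNA subtraction 311 in T cells (840), T cells with no Ccr7 or Lef1 UMI 454, no filter 350 in B cells (223) and 1382 in monocytes (890), and a minimum of 5 cells 129 and no C1q UMI 188 in NK cells. Leaving out each library gave 548 to 777 genes in T cells, 111 to 357 in B cells, 110 to 466 in NK cells, 320 to 974 in monocytes, 580 to 985 in dendritic cells and 2821 to 5893 in macrophages (4399). The classical monocyte gate alone gave no value, with too few control cells.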
